A study of Mus musculus with 4 samples.

Results

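Chemokines are small secreted or membrane-anchored proteins that steer migrating cells, and in the hair follicle they are known as signals from keratinocytes to resident immune cells and to neighbouring stroma. They act through receptors that couple to inhibitory G proteins, such as Cxcr4, while atypical receptors, such as Ackr3, take up the ligand and signal through arrestins. Cxcl12, the common ligand of Cxcr4 and Ackr3, is best known for holding stem cells in their niche in bone marrow.

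The values described here are those of 10 genes, picked by name: the 8 ligands Cxcl12, Cxcl14, Cxcl16, Cxcl1, Ccl2, Ccl20, Ccl27a and Cx3cl1, and the 2 receptors Cxcr4 and Ackr3. They were read from a raw count table of 55536 Ensembl mouse genes, in which each symbol matched 1 gene identifier. RNA sequencing was done on cells of the bulge, the follicle region that houses the stem cells, from skin of C57BL/6 mice at postnatal day 20. In 2 libraries (KO replicates 1 and 2) the mice were Cdh5CreERT2; Alk1 flox/flox, in which the Cdh5 promoter, active in endothelium, drives the inducible Cre that removes Alk1, a receptor of bone morphogenetic proteins. In the other 2 (control replicates 1 and 2) they were littermates that lacked Cre; the labels do not say whether these carried floxed Alk1. All mice, the controls included, had received 100 µg of tamoxifen per g of body weight at postnatal day 17. The deletion was directed at blood vessel cells, so bulge cells are not the cells it targets. Library titles speak of mice without giving a number, and the spread between the 2 libraries of a group is the only error available.

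The libraries held 16326906 to 29130974 counts. Acvrl1, which encodes Alk1, measured 17.9 and 23.1 CPM (counts scaled to normalised library size) in the KO libraries, against 21.6 and 24.3 CPM in the control libraries. The groups overlapped, and since the gene was deleted in endothelium this does not check the labels. Bulge markers were present throughout: Krt15, the keratin of the bulge, ranked first of all genes per exon length, and all 10 bulge markers were measured in every library. Krt10, a marker of interfollicular and upper follicle keratinocytes, ranked 13th on the same scale. It measured 4176 and 1766 CPM in KO libraries, against 6672 and 1973 CPM in control libraries. The share of such keratinocytes in each library was not tested. In bulk RNA, fewer cells of a type and less RNA per cell cannot be told apart.

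Of the 10 genes, 7 passed the filter on low counts and were tested, and 3 (Cxcl1, Ccl2 and Ccl20) did not. In edgeR's quasi-likelihood test over 14259 genes, 0 of the 7 passed an adjusted p of 0.05; the share of all tested genes that passed as higher was 0.00701% and as lower 0%. DESeq2, which called 0.262% of the genes it tested higher and 0.54% lower, and limma-voom, at 0.00701% and 0%, also called 0 of the 7. At an unadjusted edgeR p under 0.05, 4 were higher in KO (Cxcr4, Cxcl12, Cxcl16 and Ccl27a) and 0 lower, against 4.8% and 5.94% of all tested genes. Both KO libraries lay above both controls for 5 of the 7 (these 4 and Cxcl14), against 21.3% of all tested genes, and below both for 1 (Cx3cl1), against 23.6%. On the TPM scale (counts per exon length, scaled to the same total in every library) these counts were 2 (Cxcl12 and Cxcr4) and 1 (Cx3cl1), against 8.8% above and 40.7% below for all tested genes, whose median log2 ratio was -0.179 on that scale and -0.02 in CPM. In the edgeR fit 6 of the 7 had a log2 fold change above 0, against 47.5% of all tested genes. The median log2 fold change of the 7 was 0.60, and that of all tested genes was -0.021. Because the genes were chosen with earlier results of these data known, these shares describe the 7 and do not test them as a set.

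The Cxcl12, Cxcr4 and Ackr3 promoters are shown because these genes form 1 ligand and receptor axis, and Ackr3 varied between libraries unlike the others. Each runs from 250 bases before to 50 bases after the start of the gene, 5′ to 3′ on the gene's strand, from RefSeq on GRCm38.p6; of the 10 genes, 8 had such a window (Cxcl16 and Ccl2 had none). Capitals mark matches on either strand to TATAAA (the TATA box), GGGCGG (the GC box) or GGCGCC (a GC-rich SMAD element); ACGTG (the core of a hypoxia response element) was searched for as well.
Cxcl12 promoter, chr6:117168285-117168584, plus strand: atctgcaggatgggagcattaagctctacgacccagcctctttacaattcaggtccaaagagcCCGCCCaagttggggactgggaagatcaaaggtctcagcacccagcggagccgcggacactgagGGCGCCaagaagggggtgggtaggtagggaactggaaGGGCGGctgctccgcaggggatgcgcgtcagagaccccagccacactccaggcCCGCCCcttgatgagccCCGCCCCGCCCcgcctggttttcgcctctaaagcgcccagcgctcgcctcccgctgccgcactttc
Cxcr4 promoter, chr1:128592250-128592549, minus strand: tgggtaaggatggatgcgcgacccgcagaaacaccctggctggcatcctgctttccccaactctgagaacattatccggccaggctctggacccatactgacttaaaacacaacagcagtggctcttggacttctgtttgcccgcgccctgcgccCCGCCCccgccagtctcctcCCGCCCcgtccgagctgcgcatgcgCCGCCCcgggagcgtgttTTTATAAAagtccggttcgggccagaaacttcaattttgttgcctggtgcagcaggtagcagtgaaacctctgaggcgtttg
Ackr3 promoter, chr1:90203730-90204029, plus strand: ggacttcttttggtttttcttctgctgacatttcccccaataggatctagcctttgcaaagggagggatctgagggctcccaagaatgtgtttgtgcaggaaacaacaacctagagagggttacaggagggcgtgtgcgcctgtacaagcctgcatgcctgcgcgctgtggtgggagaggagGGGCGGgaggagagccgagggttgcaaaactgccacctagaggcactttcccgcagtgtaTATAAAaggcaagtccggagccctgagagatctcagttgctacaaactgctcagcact

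The Cxcl12 window held the GC box 5 times, of which 2 overlap by 1 base, and GGCGCC once, with no TATAAA. The Cxcr4 window held the GC box 3 times and TATAAA on both strands in 1 overlapping run, and the Ackr3 window held each of these motifs once. Among 32851 windows of the same length, 35.7% held a GC box, 13.6% TATAAA, 11.9% GGCGCC and 19.6% ACGTG. Of the 8 genes with a window, 6 held a GC box, 3 TATAAA, 2 GGCGCC and 1 (Cxcl1) ACGTG. These counts are per gene and the shares per window. Ccl27a had several windows, not all of which held a GC box. These matches describe the letters in the windows and are not evidence of binding.

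Levels between genes were compared as TPM. Cxcl14, a chemokine made in quantity by normal skin epithelium, was by far the most abundant of the 10, at 4769 and 5163 TPM in KO and 4119 and 4798 TPM in control libraries. It was the 14th most abundant of all genes by mean TPM and made up 94.4% to 97.2% of the summed TPM of the 8 ligands in each library. Ccl27a ranged over the 4 libraries from 55.7 to 145 TPM and Cxcl16 from 54.8 to 99.6 TPM, so these neighbours overlapped. Cxcl12 followed at 19.1 to 48.6 TPM, then Cxcr4 at 13.4 to 44.5 TPM and Ackr3 at 13.6 to 18.7 TPM. Cxcr4 overlapped with both of its neighbours, while the lowest Cxcl12 level was just above the highest Ackr3 level. Cx3cl1 lay below these at 8.30 to 12.1 TPM. The exon length of Cxcl12, 8176 bases, counts all annotated exons, and its TPM would be higher if a shorter transcript were the one made.

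**Figure D1:**
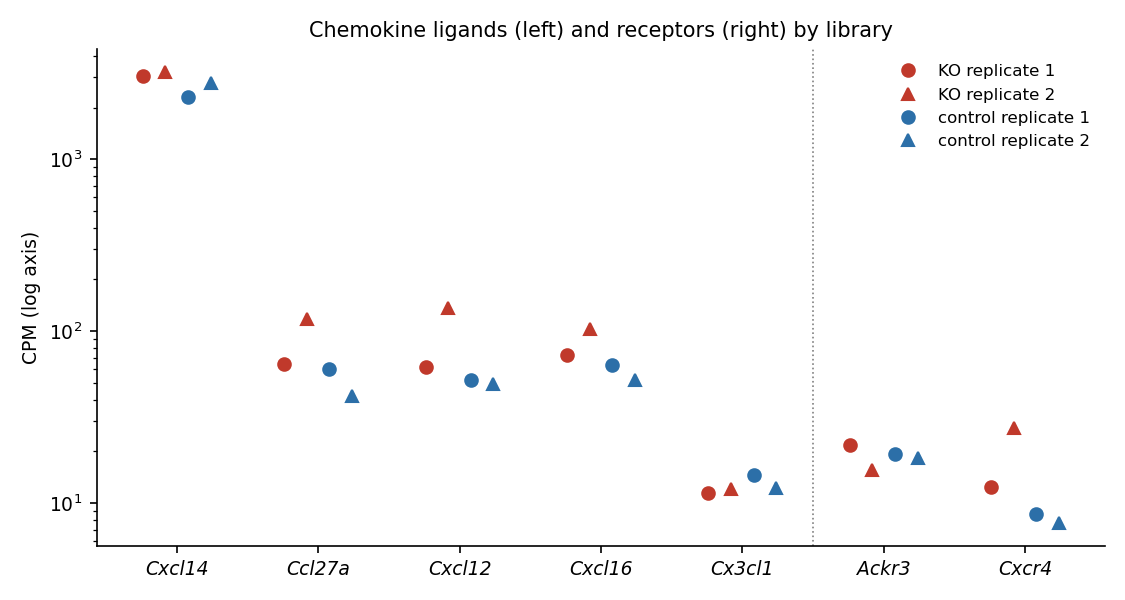
CPM of the 7 tested genes in each library on a log axis, with ligands left of the dotted line and receptors right of it; red marks KO and blue control libraries, circles replicate 1 and triangles replicate 2. KO replicate 2 stands above the other 3 libraries for Ccl27a, Cxcl12, Cxcl16 and Cxcr4, while Cxcl14 stands far above the other genes in all 4.

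Cxcr4 and its ligand Cxcl12 had the highest fold changes among the 7 genes. Cxcl12 (ENSMUSG00000061353, chromosome 6, 117168535 to 117181367, GRCm38) measured 62.3 and 136 CPM in KO libraries, against 51.8 and 49.2 CPM in control libraries. The groups did not overlap, but KO replicate 1 was close to the controls and KO replicate 2 stood apart. The fit gave 0.97 ± 0.34 on the log2 scale (± SE here and below; edgeR adjusted p = 0.43), a fold of 1.96 with a 95% interval of 1.10 to 3.49 not adjusted for the number of genes. KO replicate 1 was 1.23-fold and KO replicate 2 was 2.69-fold the control mean. Without KO replicate 2 the log2 fold change was 0.30, and without KO replicate 1 it was 1.43 (edgeR adjusted p = 0.030). With a KO library left out, the spread comes from the 2 controls alone and the remaining KO library is assumed to vary like them, so this p carries no measure of the spread within KO.

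Cxcr4 (ENSMUSG00000045382, chromosome 1, 128588199 to 128592293), the signalling receptor of Cxcl12, measured 12.4 and 27.5 CPM in KO libraries, against 8.67 and 7.65 CPM in control libraries. As for the ligand, both KO libraries were above both controls and replicate 2 was the higher. On the log2 scale Cxcr4 was higher in value by 1.29 ± 0.38 (edgeR adjusted p = 0.43), a fold of 2.45 with a 95% interval of 1.29 to 4.66. The fold over the control mean was 1.52 in KO replicate 1 and 3.37 in KO replicate 2. Without KO replicate 2 the log2 fold change was 0.61, and without KO replicate 1 it was 1.76 (edgeR adjusted p = 0.058, again with the spread taken from the controls alone).

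Ackr3 (ENSMUSG00000044337, chromosome 1, 90203980 to 90216751), the scavenging receptor of the same ligand, measured 21.8 and 15.6 CPM in KO libraries, against 19.2 and 18.2 CPM in control libraries. Here the KO libraries lay on either side of the controls, and the 95% interval of the fold ran from 0.705 to 1.42 (edgeR adjusted p = 0.9998). KO replicate 2, the library with the highest Cxcl12 and Cxcr4, had the lowest Ackr3. The ratio of Cxcr4 to Ackr3 TPM was 1.05 and 3.27 in KO libraries, against 0.836 and 0.776 in control libraries. The ratio in KO replicate 1 was close to 1, from 270 Cxcr4 and 475 Ackr3 counts, and which of the pair is the higher rests on exon lengths of 1808 and 3348 bases for Cxcr4 and Ackr3, which count all annotated exons. This ratio was formed after the values were seen and was not tested.

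**Figure D2:**
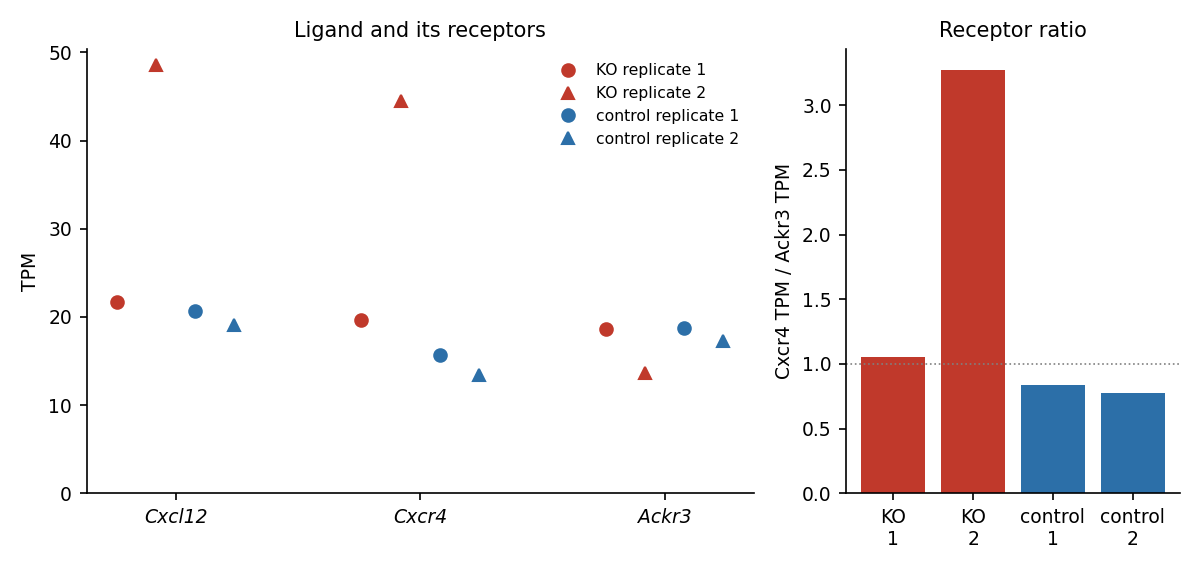
Left, TPM of the ligand Cxcl12 and of its receptors Cxcr4 and Ackr3 in each library (red KO, blue control; circles replicate 1, triangles replicate 2). Right, Cxcr4 TPM over Ackr3 TPM per library, with a dotted line at equal levels; the KO bars reach 1.05 and 3.27, and the control bars 0.836 and 0.776.

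Ccl27a and Cxcl16 had the same order of libraries within KO. Ccl27a (ENSMUSG00000073888, chromosome 4, 41769467 to 41774247), a keratinocyte chemokine that draws T cells bearing Ccr10 into skin, measured 64.1 and 118 CPM in KO libraries, against 60.3 and 41.7 CPM in control libraries. KO replicate 1 exceeded control replicate 1 only narrowly. Its log2 fold change, 0.84 ± 0.32 (edgeR adjusted p = 0.44), compares with 0.33 when KO replicate 2 was left out. Near-identical copies of this gene could share reads with it: Ccl27b had 0 counts in each library, and the 2 genes named Ccl27 had 1 count in all. Ccl27a shares 8 exon bases (0.337% of its own) with Il11ra1 on the other strand, and the labels do not say whether counting used strand. Il11ra1 was the more abundant in CPM, at 361 and 432 CPM in KO libraries, against 307 and 324 CPM in control libraries. The part of its reads in the Ccl27a values was not tested.

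Cxcl16 (ENSMUSG00000018920, chromosome 11, 70453983 to 70459984) is a membrane-bound ligand of Cxcr6 that is released by proteases. It measured 73.0 and 103 CPM in KO libraries, against 63.7 and 52.1 CPM in control libraries, without overlap. For Cxcl16 the fit gave 0.60 ± 0.20 on the log2 scale (edgeR adjusted p = 0.43), and 0.34 without KO replicate 2. Of its exon bases, 18.3% overlap those of Zmynd15 on the other strand, a gene with 51 and 92 counts in KO and 72 and 114 in control libraries, against 1590 and 2150 for Cxcl16 in KO and 1066 and 1540 in control libraries.

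Cxcl14 (ENSMUSG00000021508, chromosome 13, 56288643 to 56296551) had a smaller fold change. It measured 3056 and 3226 CPM in KO libraries, against 2302 and 2759 CPM in control libraries. Unlike the 4 genes above, its KO libraries were close to each other and its controls were the wider pair. A log2 fold change of 0.31 ± 0.14 was fitted for Cxcl14 (edgeR adjusted p = 0.48), with 0.19 when control replicate 1 was left out.

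Cx3cl1 (ENSMUSG00000031778, chromosome 8, 94772009 to 94782427), the membrane-anchored chemokine fractalkine, was the 1 tested gene with a log2 fold change below 0. It measured 11.4 and 12.0 CPM in KO libraries, against 14.5 and 12.2 CPM in control libraries. Both KO libraries were below both controls, though replicate 2 of each group was nearly equal. The fit gave -0.19 ± 0.20 on the log2 scale (edgeR adjusted p = 0.73), and the interval of the fold, 0.631 to 1.22, includes no change.

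**Figure D3:**
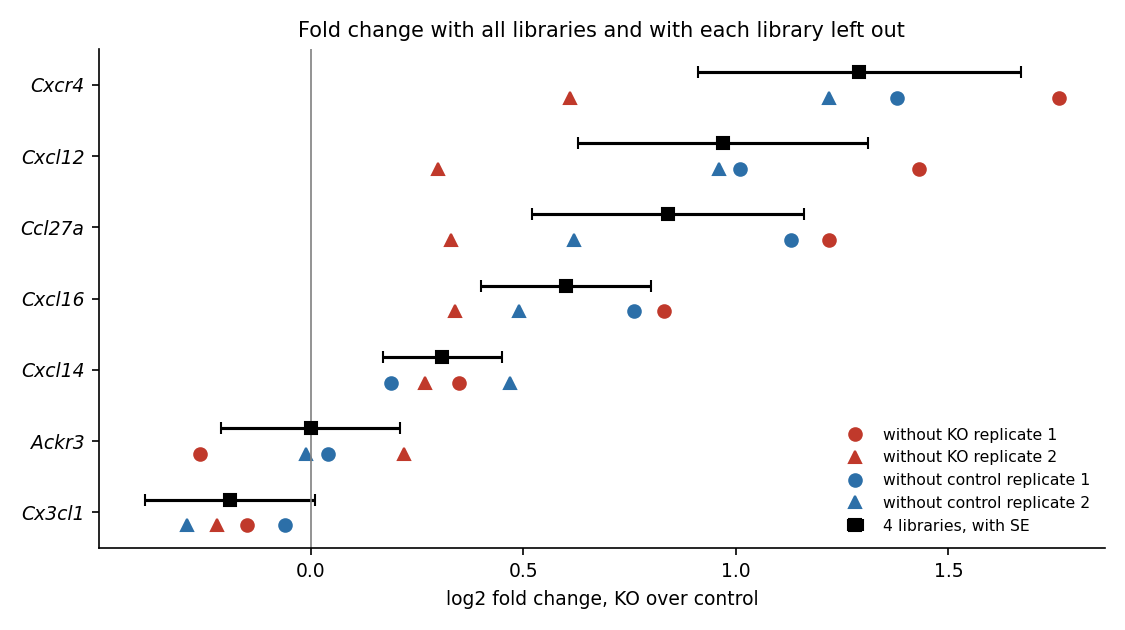
Log2 fold change of KO over control for the 7 tested genes; black squares are the fit on 4 libraries with its SE, and coloured marks the fits with 1 library left out. Leaving out KO replicate 2 brings Cxcr4 to 0.61, Cxcl12 to 0.30, Ccl27a to 0.33 and Cxcl16 to 0.34, and leaving out KO replicate 1 brings them to 1.76, 1.43, 1.22 and 0.83.

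The inflammatory chemokines were at the limit of detection. Cxcl1, which attracts neutrophils, had 1 and 5 counts in KO and 0 in both control libraries, where a count of 0 allows up to 3 counts. Ccl2, which attracts monocytes, had 5 and 8 counts in KO and 5 and 2 in control libraries. Ccl20, the ligand of Ccr6, had 14 and 4 counts in KO and 4 and 9 in control libraries. For Ccl2 and Ccl20 the groups overlapped, and no difference was detectable at this depth for any of the 3.

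For the 4 genes of highest fold change, the difference between the KO libraries was larger than that between the controls. KO replicate 2 was 2.22-fold KO replicate 1 for Cxcr4, 2.18-fold for Cxcl12, 1.84-fold for Ccl27a and 1.41-fold for Cxcl16. Of all tested genes, 3.57%, 3.79%, 5.90% and 14.0% had a ratio between these libraries at least as high as that of Cxcr4, Cxcl12, Ccl27a and Cxcl16. KO replicate 2 was the higher of the pair for 6 of the 7 tested chemokine genes, against 50.1% of all tested genes.

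Markers of other cells were set beside these values. The summed CPM of 8 dermal fibroblast markers was 151 and 147 in KO libraries, against 193 and 246 in control libraries, with 1 marker of the 8 (Lum) above and 2 (Col1a1 and Col1a2) below both controls in both KO libraries; over all tested genes these shares are 21.3% and 23.6%, here and for the lists that follow. Col1a1, the most abundant of the list in CPM, measured 89.5 and 75.2 CPM in KO libraries, against 117 and 148 CPM in control libraries. The less abundant markers differed in their order of libraries. Dcn and Col3a1 were highest in KO replicate 2: Dcn measured 0.919 and 3.25 CPM in KO libraries, against 0.777 and 1.22 CPM in control libraries, and Col3a1 0.551 and 2.97 CPM in KO libraries, against 1.02 and 0.947 CPM in control libraries. Thy1, more abundant than either, was lowest there, at 15.5 and 7.32 CPM in KO libraries, against 10.3 and 13.2 CPM in control libraries. Pdgfra measured 1.19 and 2.11 CPM in KO libraries, against 1.44 and 2.13 CPM in control libraries. Lum and Mfap5 were the lowest of the list, with at most 1 count in any library. The 10 leukocyte markers summed to 58.5 and 65.4 CPM in KO libraries, against 56.2 and 45.6 CPM in control libraries, with 4 markers of the 10 above both controls and 1 below. Cd74 was the largest part of this sum, at 31.3 CPM in both KO libraries, against 31.3 and 25.4 CPM in control libraries. The 4 above were Cd3e, Cd3g, Trdc and Cd68, and the 1 below was Lyz2, which did not pass the filter on low counts. Cd68 measured 4.91 and 12.8 CPM in KO libraries, against 3.95 and 3.69 CPM in control libraries (edgeR adjusted p = 0.45). The 8 blood endothelial markers summed to 4.78 and 17.8 CPM in KO libraries, against 13.6 and 5.75 CPM in control libraries. Of that list 1 marker was above and 1 below both controls in both KO libraries. Tek, the marker above, measured 3.17 and 10.6 CPM in KO libraries, against 2.69 and 2.06 CPM in control libraries (edgeR adjusted p = 0.44). Cdh5, the marker below, measured 0.138 and 0.144 CPM in KO libraries, against 1.38 and 0.305 CPM in control libraries, and did not pass the filter on low counts. Markers of interfollicular and upper follicle keratinocytes, 10 genes, summed to 9244 and 5251 CPM in KO libraries, against 13330.2 and 5079 CPM in control libraries. This sum, with Krt10 as its largest part in every library, was lower in replicate 2 of each group. Within the list, however, Krt79, Lrig1, Plet1 and Krt17 were highest in KO replicate 2. In this list 1 marker was above both controls in both KO libraries and 0 below. That marker, Krt17, measured 719.7 and 845 CPM in KO libraries, against 555 and 483 CPM in control libraries (edgeR adjusted p = 0.43). Sebaceous gland markers, 8 genes, summed to 280.3 and 166 CPM in KO libraries, against 499.8 and 194 CPM in control libraries. In that list 0 markers were above and 0 below both controls. The 5 mural cell markers summed to 513 and 550.1 CPM in KO, against 628 and 645 CPM in control libraries. The 6 melanocyte markers summed to 14.2 and 14.7 CPM in KO, against 9.93 and 16.9 CPM in control libraries. Each of these 2 lists had 0 markers above and 2 below. None of these markers passed the threshold, and the part of any of these cells in the chemokine values was not tested.

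Most other chemokine genes were not detected or barely so. Of 39 gene identifiers of other chemokine ligands, 25 had no count in any library, Ccl8 and the Ccl21 genes among them, and 6 were tested. By edgeR, DESeq2 and limma-voom 0 of the 6 passed the threshold. At an unadjusted edgeR p under 0.05, 0 were higher and 0 lower, against 4.8% and 5.94% of all tested genes. Ccl25, the highest in CPM, measured 3.49 and 3.40 CPM in KO libraries, against 2.45 and 3.76 CPM in control libraries. Cxcl9 and Ccl28 came next in CPM, at means of 0.872 and 0.817 CPM. Per exon length the order differs: Xcl1, named after its values were seen, had the highest mean of the 6 at 4.14 TPM, against 1.34 TPM for Ccl25, 0.884 TPM for Cxcl9 and 0.51 TPM for Ccl28.

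Of 21 other receptors, 5 had no count and 4 were tested, of which 0 passed with edgeR, DESeq2 or limma-voom. At an unadjusted edgeR p under 0.05, 0 were higher and 0 lower, against 4.8% and 5.94% of all tested genes. Ackr4, an atypical receptor that scavenges Ccl19, Ccl21 and Ccl25, was the exception in level, at 281 and 244 CPM in KO libraries, against 233 and 281 CPM in control libraries. Its mean of 147 TPM was above that of every ligand and receptor among the 10 apart from Cxcl14. Ackr4 gave a log2 fold change of 0.03 ± 0.15 (edgeR adjusted p = 0.95). Ccr4, a receptor of T cells, measured 4.0 and 2.11 CPM in KO libraries, against 8.01 and 3.11 CPM in control libraries, and Ackr2, a scavenger of inflammatory chemokines, averaged 1.54 CPM over the 4 libraries.

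The signalling receptors for the ligands above, other than Cxcr4, were hardly detected. Ccr10, the receptor of Ccl27a, had 0 and 1 counts in KO and 0 in both control libraries. Cxcr6, the receptor of Cxcl16, had 20 and 6 counts in KO and 7 and 6 in control libraries. Cx3cr1, the receptor of Cx3cl1, had 13 and 6 counts in KO and 7 and 6 in control libraries. For each of these 3 the counts of the groups overlapped. Cxcr2, a receptor of Cxcl1, had 5 and 11 counts in KO and 2 and 1 in control libraries. Its groups did not overlap, and 21.3% of all tested genes had both KO libraries above both controls. Ccr6, the receptor of Ccl20, had 0 and 1 counts in KO and 0 in both control libraries. Ccr2, the receptor of Ccl2, had 0 counts in both KO and 0 and 3 in control libraries. None of these receptors passed the filter on low counts.

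Genes that process chemokines or carry the receptor signal were mostly expressed, and none passed the test. Of 33 such genes 30 were tested, with 20 above 0, 10 below 0 and a median log2 fold change of 0.05. Over all tested genes 47.5% were above 0, with a median of -0.021. By edgeR, DESeq2 and limma-voom 0 passed the threshold. At an unadjusted edgeR p under 0.05, 1 gene was higher in KO and 0 lower, against 4.8% and 5.94% of all tested genes. That gene was Mmp14, a membrane protease, named after its values were seen, at 265 and 500.3 CPM in KO libraries against 204 and 236 CPM in control libraries (log2 fold change 0.80 ± 0.29, adjusted p = 0.43). Sdc1 and Sdc4, heparan sulphate proteoglycans that bind chemokines, gave 0.21 ± 0.13 and 0.18 ± 0.12, and Hmgb1, a nuclear protein that can partner Cxcl12, gave 0.15 ± 0.13.

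Among 30 genes of NF-kappaB feedback and inflammation 24 were tested, with 15 above 0, 9 below 0 and a median log2 fold change of 0.069. Over all tested genes 47.5% were above 0, with a median of -0.021. By edgeR, DESeq2 and limma-voom 0 passed the threshold. At an unadjusted edgeR p under 0.05, 1 gene was higher in KO and 0 lower, against 4.8% and 5.94% of all tested genes. That gene was Relb, a subunit of NF-kappaB, named after its values were seen, at 31.6 and 37.8 CPM in KO libraries against 23.6 and 23.5 CPM in control libraries (0.56 ± 0.15, adjusted p = 0.43). The members of highest mean CPM, a scale that does not correct for exon length, were Tnfrsf1a, a receptor of tumour necrosis factor (-0.04 ± 0.12), Nfkbia, the inhibitor induced by NF-kappaB (0.23 ± 0.20), and Nfkb1, another subunit (-0.20 ± 0.11).

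**Figure D4:**
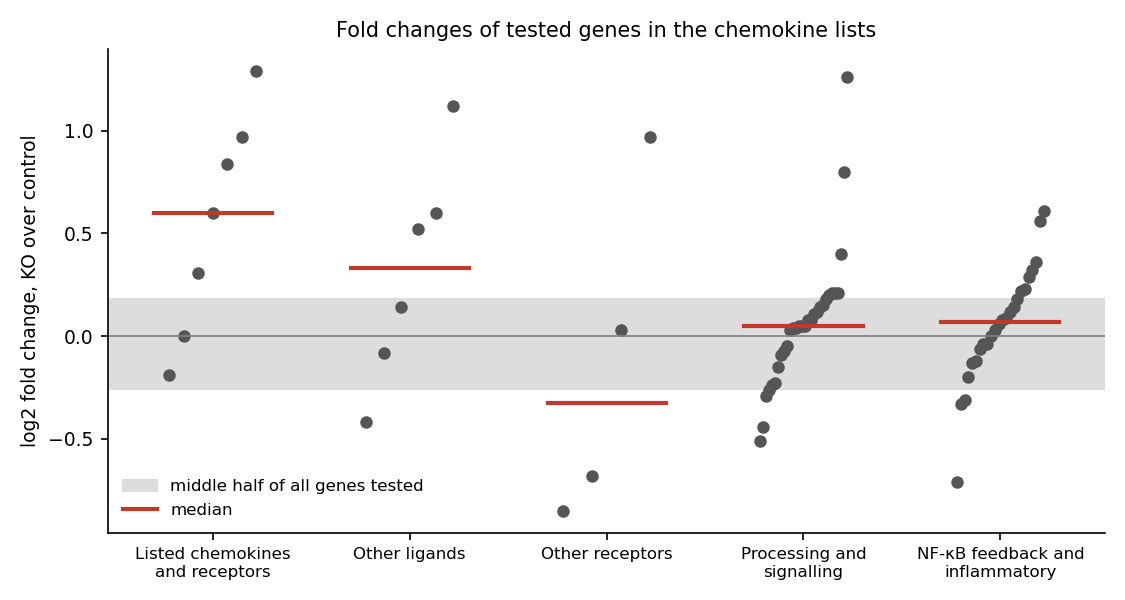
Log2 fold change of KO over control for each tested gene of the 10 listed chemokines and receptors and of the other lists; red bars are list medians and the grey band spans the lower to the upper quartile of all 14259 genes tested. The medians are 0.60 for the 7 listed genes, 0.327 for other ligands, -0.322 for other receptors, 0.05 for processing and signalling and 0.069 for NF-kappaB feedback and inflammation.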

How the data were processed

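The deposited values are raw counts per Ensembl gene for 4 libraries, per the labels; polyA-enriched directional libraries were made from TRIzol-extracted RNA, per the labels' protocols. Trim Galore 0.6.0, cutadapt, FastQC, STAR 2.7.0e, DESeq2 1.26.0 and GRCm38 (mm10) are listed in the submitters' processing notes; neither these nor the labels name the counting tool or the annotation release. Symbols, coordinates and exon lengths came from GENCODE M21 on GRCm38, which held all 55536 identifiers.

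Counts were filtered with filterByExpr (14259 genes kept), scaled by TMM and compared, KO against control, with edgeR 4.0.16 in R 4.3.3 (quasi-likelihood test, robust, no covariates, Benjamini-Hochberg adjustment over all tested genes, threshold 0.05). Alternatives used DESeq2 1.42.0 and limma-voom (limma 3.58.1). CPM used TMM library sizes, and TPM used all annotated exons. Intervals are at 95%; p-values measure the spread between these libraries, which may be technical. On simulated counts for this comparison with 14259 genes, genes changed 1.5-fold were called in 12% of cases, 2-fold in 56%, 4-fold in 92% and 8-fold in 100%, with 11 false among 141 calls. In that simulation 50 genes per fold were changed together, all above a floor in CPM, which eases the adjusted threshold. Counts were drawn independently for each gene, with no shift shared by the genes of a library. The real data called 1 gene, so the power in them may be lower than these shares. Replicates were not duplicates (chi-square per degree of freedom 41.9 for KO and 31.6 for control).

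The genes and lists were chosen with earlier results of these data known. All 10 genes are named; from each other list, those past the threshold, or otherwise the 3 of highest mean CPM, and others are marked as named after their values were seen, as were the markers and the receptors of the ligands.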

Additional observations from a re-analysis of the deposited data

How the results depend on the processing

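Among the 7 tested chemokine genes, all but Ackr3 kept the sign of their log2 fold change in the 12 alternatives run. Ackr3, at 0.00013, turned to -0.00075 with upper-quartile normalization, -0.01 without a count filter, with at least 50 counts in at least 2 libraries and with limma-voom, -0.02 with the replicate block, and ran from -0.26 (without KO replicate 1) to 0.22 (without KO replicate 2) when 1 library was left out, with -0.01 without control replicate 2. No chemokine gene was called in the main fit. Without a count filter, also on all 4 libraries, 3 were called higher: Cxcr4 (edgeR adjusted p = 3.7e-05), Ccl27a (0.0018) and Cxcl16 (0.0093). In that fit the prior degrees of freedom were infinite, against 4.17, so a gene's own spread hardly counted. With 1 library left out, 0 to 1 chemokine genes were called higher, in fits where the lone library of a group is assumed to vary like the other group. Of the other lists, 1 gene, Mmp14, was called higher without a count filter. Over all genes, 1 was called higher and 0 lower in the main edgeR test; without a count filter the counts were 163 and 267, with DESeq2 33 and 68, with the replicate block 25 and 81, and with 1 library left out 1 to 15 and 0 to 6. With the exon length trend removed, an alternative added after seeing the data, 2 genes were called higher, and Cxcl12 gave 1.11. On the TPM scale, also added, both KO libraries lay above both controls for 2 of the 7 genes (Cxcl12 and Cxcr4) in place of 5, but that scale moved the median of all tested genes from -0.02 to -0.179, and only 8.8% of all tested genes lay above. The block gives no pairing that the labels state; same-numbered libraries deviated together with r = 0.122 across genes, and no chemokine gene passed with it. With 2 libraries per group, an outlying library cannot be tested for.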
